A study of Mus musculus with 9 samples.

Results

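The interferon response and antigen presentation genes of the mouse ventricle were followed across hearts with raised, lowered and unaltered phosphoinositide 3-kinase (PI3K) signalling. Members were taken by gene symbol from the annotation of the array: the Ifi, Ifit, Ifitm, Isg, Oas, Gbp and Mx genes, the Stat and Irf transcription factors, all H2 genes, B2m, Tap1, Tap2, Tapbp and Usp18. This rule uses no measured value. It found 70 genes on 89 probe sets, out of 8252 genes with a probe set of 1 symbol, and 66 of the 70 lay above a floor on dim signals on at least 3 of the 9 arrays and were tested. A gene is described by its probe set with the highest mean over the 9 arrays.

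Total RNA came from ventricle only, with 1 array per mouse and 3 mice per group. The caPI3K mice carried a transgene for a constitutively active PI3K and had enlarged hearts, the dnPI3K mice carried a transgene for a dominant negative PI3K and had small hearts, and the NTG mice carried no transgene. Strain, age, sex, the promoter of either transgene and the number of founder lines are not given in the sources used here, and H2 genes are polymorphic between strains. Values are hybridisation intensities, quantile normalized between arrays. Values per array are printed as measured, also below the floor of 35.3, and entered the test as the floor there. They can be set against each other between arrays for 1 probe set, but not between probe sets. The 3 mice of a group are numbered replicate 1 to 3 only to name them.

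Interferons are secreted signals that bind cell surface receptors and, through Jak kinases, activate Stat and Irf transcription factors. These factors enter the nucleus and bind the promoters of interferon-stimulated genes, whose products block viruses, destroy vacuoles that hold microbes, cut proteins into peptides and load the peptides on MHC molecules. Class I MHC molecules, made of an H2 heavy chain and beta-2 microglobulin, show peptides from inside a cell on nearly every cell type, whereas class II molecules are made mainly by macrophages, dendritic cells and B cells, which in the heart lie between the muscle cells.

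The 2 promoter elements of this pathway were looked up in the RefSeq promoter table (build GRCm38.p6) in the 250 bases before each gene's start. They are the core of the interferon-stimulated response element (ISRE), which reads GAAA, any 2 bases and GAAA, and the core of the gamma-activated site (GAS), which reads TTC, any 3 bases and GAA. Both strands were read. The table held 68 windows for 53 of the 70 genes. The ISRE core stood in 11 of these 68 windows (16.2%), against 978 of all 32851 windows (2.98%), and the GAS core in 9 (13.2%), against 2306 (7.02%). The windows with an ISRE core belong to 11 genes and those with a GAS core to 9. A match describes the letters of the window and no binding was measured. The windows below are shown because they hold the ISRE core and belong to genes whose arrays are described further on. Each is read 5′ to 3′ on the strand of its gene and ends at the base before the start. The capitals mark the cores, and an ISRE core on the other strand reads TTTC, any 2 bases and TTTC.
Gbp2, chr3:142620413-142620662, plus strand: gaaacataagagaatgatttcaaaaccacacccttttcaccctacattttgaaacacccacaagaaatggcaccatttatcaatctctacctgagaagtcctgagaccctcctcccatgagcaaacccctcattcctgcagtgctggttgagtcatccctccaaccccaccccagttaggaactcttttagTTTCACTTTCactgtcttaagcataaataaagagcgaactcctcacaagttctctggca
Gbp7, chr3:142530086-142530335, plus strand: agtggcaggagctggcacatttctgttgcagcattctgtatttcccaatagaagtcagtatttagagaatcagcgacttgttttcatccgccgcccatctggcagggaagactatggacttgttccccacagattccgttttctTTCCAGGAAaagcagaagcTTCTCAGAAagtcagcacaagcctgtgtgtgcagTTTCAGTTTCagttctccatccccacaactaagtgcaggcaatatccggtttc
B2m, chr2:122147437-122147686, plus strand: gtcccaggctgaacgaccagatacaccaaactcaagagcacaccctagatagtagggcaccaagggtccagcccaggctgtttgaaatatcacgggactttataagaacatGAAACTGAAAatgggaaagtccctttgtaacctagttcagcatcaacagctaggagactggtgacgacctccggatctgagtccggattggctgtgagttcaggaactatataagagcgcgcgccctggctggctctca
Ifit3, chr19:34583279-34583528, plus strand: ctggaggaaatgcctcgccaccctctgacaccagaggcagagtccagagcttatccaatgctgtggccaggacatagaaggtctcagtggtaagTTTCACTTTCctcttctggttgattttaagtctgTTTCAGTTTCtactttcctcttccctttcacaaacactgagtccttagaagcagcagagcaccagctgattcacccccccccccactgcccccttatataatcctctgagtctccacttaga
Isg15, chr4:156200819-156201068, minus strand: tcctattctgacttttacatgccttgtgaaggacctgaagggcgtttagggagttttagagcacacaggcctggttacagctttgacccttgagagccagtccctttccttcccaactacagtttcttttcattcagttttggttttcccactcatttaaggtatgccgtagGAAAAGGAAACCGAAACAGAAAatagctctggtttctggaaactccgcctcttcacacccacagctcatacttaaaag
The window of Gbp7 holds 1 ISRE core and 2 GAS cores. Ifit3 has 2 separate ISRE cores, and the capitals of Isg15 are 3 ISRE cores that overlap one another. In Gbp2 and B2m the core occurs once.

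The deposited values shared 1 scale, with a 2% trimmed mean of 500.4 on every array and medians between 174.8 and 194. For arrays, precision is set by their number, and p-values measure the spread between these mice. The dnPI3K arrays stood apart in the array controls. Their spike-in controls, which are no heart RNA, averaged 1790 ± 212 (geometric mean over the controls, SD over n = 3 arrays), against 3023 ± 272 on caPI3K arrays and 2988 ± 369 on NTG arrays. The 3′ control for 18S ribosomal RNA, which is part of the heart's own RNA, read 3265 to 8567 on dnPI3K arrays, against 476 to 545 on caPI3K arrays and 450.5 to 671 on NTG arrays. The part of these controls in any dnPI3K difference below was not tested. Markers of ventricular muscle were measured for 11 of 11 listed genes, and the range of their summed intensity overlapped between all groups, with 271184 to 286161 in caPI3K, 260874 to 282402 in dnPI3K and 273067 to 297192 in NTG.

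Few interferon and MHC genes passed the test between groups. A gene was called at a limma adjusted p under 0.05, with the Benjamini-Hochberg adjustment over all 10645 probe sets tested. For caPI3K against NTG, limma called 0 of 66 genes, against 0.0845% of all probe sets tested, and 0 of 66 had an unadjusted p under 0.05, against 6.9% of all. For dnPI3K against NTG it also called 0 of 66, against 2.18% of all, and 6 genes had an unadjusted p under 0.05 (9.09%, against 14.8% of all), all higher in dnPI3K. For caPI3K against dnPI3K it called 1 of 66, the transcription factor gene Stat3, against 3.24% of all, and 6 had an unadjusted p under 0.05 (9.09%, against 16.4%). The same shares of all probe sets stand beside the counts of called genes by role and by list below. With shares this low, 0 or 1 call does not set a small list apart.

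**Figure D1:**
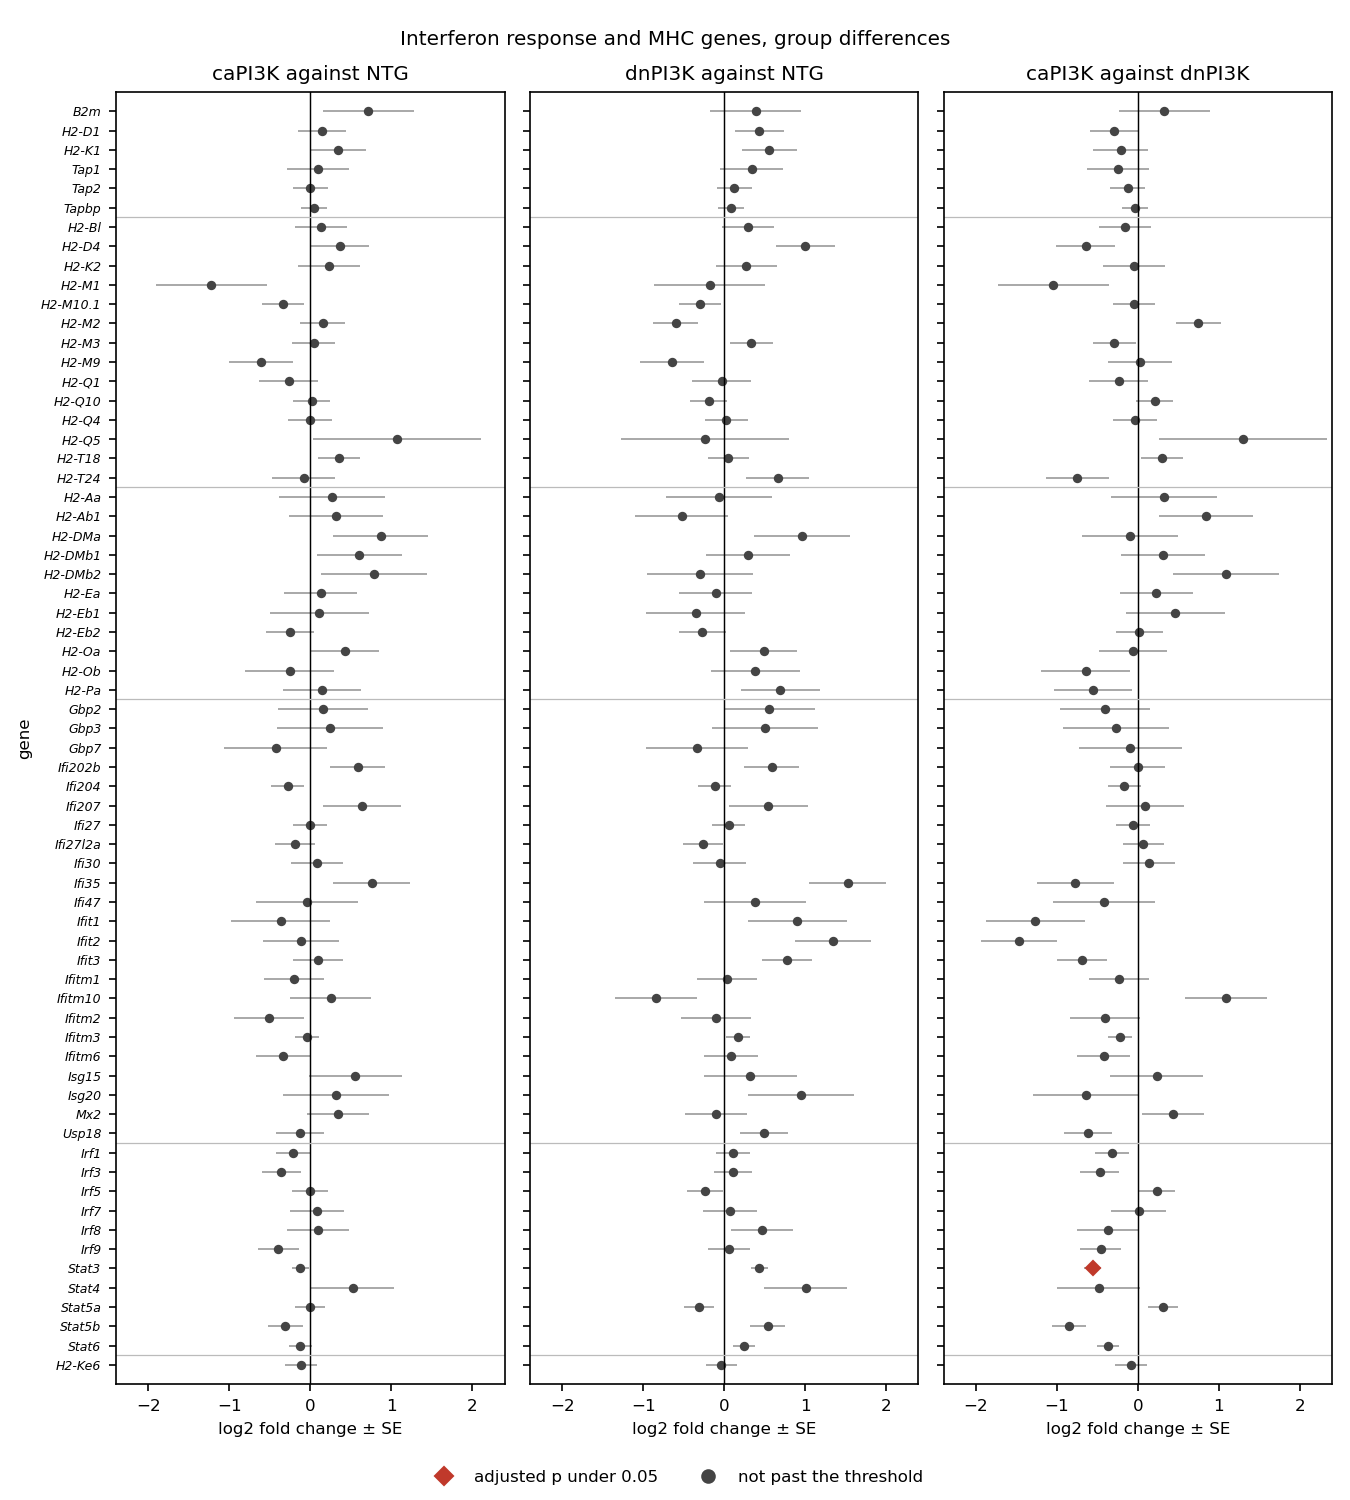
Log2 fold change with its moderated standard error for the 66 tested genes (rows, grouped by role from class I at the top to H2-Ke6 at the bottom) in the 3 comparisons, 1 panel each (n = 3 arrays a group). Of all points, the only one past an adjusted p of 0.05 is Stat3 in caPI3K against dnPI3K, at -0.56.

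Counting genes whose 3 arrays of one group all lay beyond the 3 of the other was done beside the test. There were 0 of 66 in caPI3K against NTG (12.1% of all probe sets), 5 in dnPI3K against NTG (7.58%, against 19.1%) and 7 in caPI3K against dnPI3K (10.6%, against 23.7%). The median log2 fold change of the 66 genes was 0.07 in caPI3K against NTG, 0.12 in dnPI3K against NTG and -0.14 in caPI3K against dnPI3K, where all probe sets tested had medians of -0.000686, 0.00326 and 0.000218. In 43 of 66 genes dnPI3K was above NTG (65.2%, against 50.5% of all probe sets), and in 22 of 66 caPI3K was above dnPI3K (33.3%, against 50% of all). The comparisons share arrays: the NTG arrays serve both transgenic groups, and the dnPI3K arrays serve both dnPI3K contrasts. RNA of whole ventricle was measured, so fewer cells of a type and less RNA per cell cannot be told apart.

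The animal numbers of the caPI3K and NTG mice fall into a pair of series, each holding mice of both groups, and the labels do not say whether a series is a litter or a batch. Within the series with 2 mice of either group, 25 of 66 genes were higher in caPI3K than in NTG, and within the series with 1 of each, 46 of 66 were. The direction was the same in both series for 30 of 66 genes. The shares of all probe sets were not counted for these directions. The series with 1 of each compares 1 array with another, caPI3K replicate 3 with NTG replicate 3. These were the highest array of their group in 34 and 16 of the 66 genes. The numbers of the dnPI3K mice are far below those of all other mice, so series and group cannot be told apart there. Within dnPI3K, the number of replicate 1 lies apart from those of the other two, which are close together.

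Interferons and their receptors start the pathway. Of 18 listed genes for interferons and their receptors, 14 had a probe set and 12 were tested. Ifng, the gene for the type II interferon, lay on the floor of 35.3 on all 9 arrays. In both contrasts with NTG 0 of 12 passed the test, against 0.0845% of all probe sets tested for caPI3K and 2.18% for dnPI3K. In caPI3K against dnPI3K 1 of 12 fell, against 3.24% of all called in either direction. That gene was Ifna9, a type I interferon gene, which read 108, 82.1 and 68.9 in caPI3K, against 201, 220.2 and 221 in dnPI3K and 193, 145 and 108 in NTG. All caPI3K arrays were below all dnPI3K arrays, the NTG arrays were below all dnPI3K arrays too, and the lowest of them was level with the highest caPI3K array. Its log2 fold change was -1.33 ± 0.296 (SE) with a limma adjusted p of 0.0366, and the call was lost when any 1 of the 6 arrays was left out (adjusted p 0.0517 to 0.122) or with no filter on dim probe sets (0.0622). Type I interferon genes are near copies of each other, so which of them the probe set measured is uncertain. Ifna9 is no member by the rule and was named because it passed the test. Among 12 measured genes for Jak kinases and inhibitors of the pathway, such as Jak1, Tyk2 and Socs1, and among 5 measured sensors of foreign nucleic acid, 0 passed in any of the 3 comparisons.

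The Stat and Irf genes encode the factors that carry the signal to the nucleus, and 11 of 12 were tested. Stat3, which many cytokines activate besides interferon, was lower in caPI3K than in dnPI3K. It read 1453, 1527 and 1717 in caPI3K, against 2240.2, 2585 and 2095 in dnPI3K and 1706, 1765 and 1629 in NTG. All dnPI3K arrays were above every other array, and the caPI3K and NTG arrays overlapped. The log2 fold change of caPI3K against dnPI3K was -0.56 ± 0.105 (SE), limma adjusted p = 0.0174, while dnPI3K against NTG gave 0.44 ± 0.105 and an adjusted p of 0.0656, and caPI3K against NTG -0.12 ± 0.105. A second Stat3 probe set had -0.50 in caPI3K against dnPI3K and did not pass (adjusted p = 0.126). The call was lost without caPI3K replicate 1 (limma adjusted p = 0.0705), without caPI3K replicate 2 (0.0835), without dnPI3K replicate 2 (0.076) and with no intensity trend (0.0993). Over all alternatives the adjusted p ran between 0.00967 and 0.0993.

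**Figure D2:**
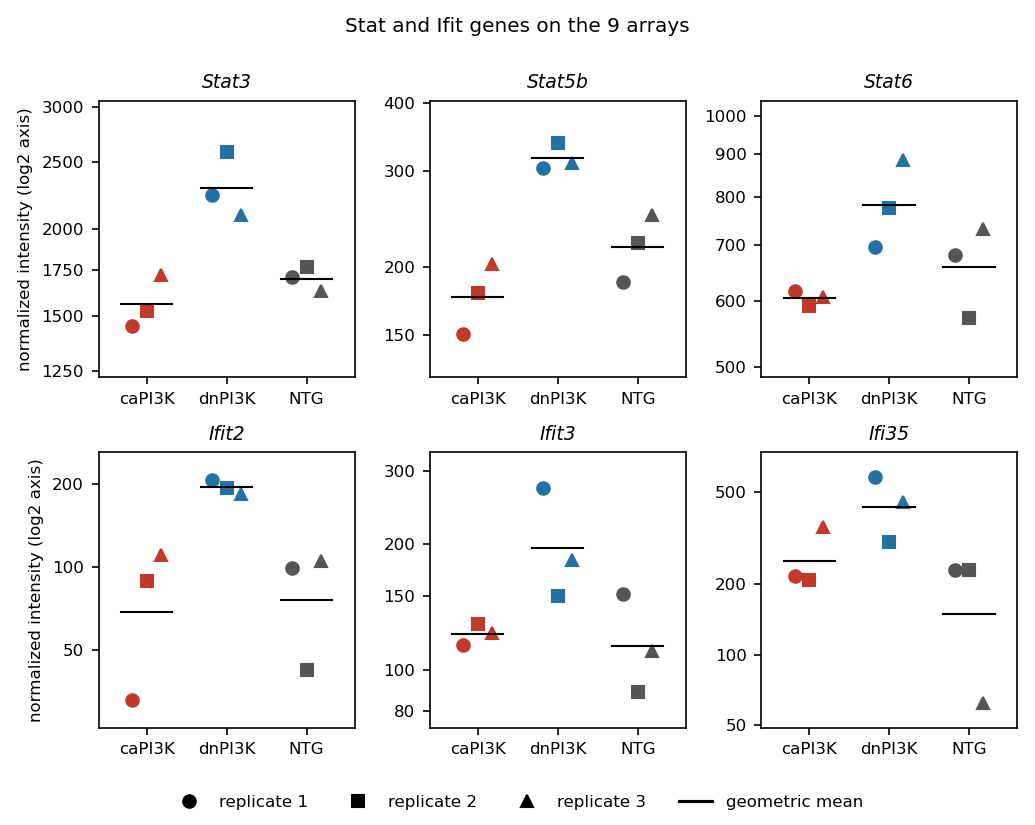
Normalized intensity (log2 axis) on each of the 9 arrays for Stat3, Stat5b, Stat6, Ifit2, Ifit3 and Ifi35, by group, with a symbol per replicate and a line at the geometric mean. In the panels of Stat3, Stat5b and Ifit2 the 3 dnPI3K arrays lie above all other arrays.

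Stat5b and Stat6, which carry signals of growth hormone and interleukin-4, showed the same order of groups without passing. Stat5b read 150.2, 179 and 202 in caPI3K, against 304, 337 and 310.3 in dnPI3K and 188, 221 and 249 in NTG. Its dnPI3K arrays lay above all others, with a log2 fold change of -0.85 ± 0.214 in caPI3K against dnPI3K and an adjusted p of 0.0616. Stat6 read 617, 592 and 606 in caPI3K, against 696, 775 and 886 in dnPI3K and 681, 571 and 732 in NTG. Here caPI3K and dnPI3K did not overlap, NTG overlapped both, and caPI3K against dnPI3K gave -0.37 ± 0.137 (adjusted p = 0.195). Stat5a, a close relative of Stat5b, did not follow it. Its arrays read 1291, 1206 and 1497 in caPI3K, against 876, 1146 and 1223 in dnPI3K and 1516, 1544 and 993 in NTG, and overlapped in all comparisons. The log2 fold change of Stat5a was 0.31 ± 0.186 in caPI3K against dnPI3K by this probe set and -0.02 by a second one.

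Among the Irf genes, Irf9 encodes the partner that joins a Stat pair on the ISRE, Irf1 a factor that interferon itself induces, Irf7 the amplifier of type I interferon, and Irf3 the factor that nucleic acid sensors activate. Irf9 read 343, 373 and 563 in caPI3K, 652, 620.4 and 462 in dnPI3K and 694, 389 and 607 in NTG. Irf1 read 435, 415 and 704 in caPI3K, 605, 682 and 600.5 in dnPI3K and 683, 471 and 611 in NTG. For both genes the 2 lowest of the 9 arrays were caPI3K arrays, but the groups overlapped, and the log2 fold changes of caPI3K against NTG were -0.40 ± 0.255 for Irf9 and -0.21 ± 0.213 for Irf1. Irf3 read 212, 332 and 203 in caPI3K, 416, 294 and 311 in dnPI3K and 279, 313 and 345 in NTG. Irf7 read 203, 145 and 125 in caPI3K, 166, 129 and 169 in dnPI3K and 116, 232 and 115 in NTG. Neither separated the groups: caPI3K against NTG gave -0.36 ± 0.238 for Irf3 and 0.08 ± 0.336 for Irf7. This Irf7 probe set is of a kind shared within a gene family, and a second, dimmer one, not of that kind, gave -0.49. The remaining 3 tested factors, Irf5, Irf8 and Stat4, had log2 fold changes between -0.49 and 1.01 over the comparisons, with no call. Irf4 was on the floor on every array.

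The interferon-induced effectors comprise 26 genes, of which 23 were tested, and 0 of 23 were called in any comparison. In dnPI3K against NTG 16 of 23 were higher in dnPI3K, against 50.5% of all probe sets, with a median log2 fold change of 0.33. In caPI3K against dnPI3K 17 of 23 were lower in caPI3K and 6 higher, against 50% of all higher, with a median of -0.24. In caPI3K against NTG 11 were higher and 12 lower, with a median of -0.00296. A single array, dnPI3K replicate 1, was the highest dnPI3K array in 17 of the 23 effectors and the highest of all 9 arrays in 11. The Ifit genes, whose products bind viral RNA and stop its translation, had their highest group mean in dnPI3K. Ifit2 read 32.9, 89.0 and 111 in caPI3K, against 207, 193 and 184 in dnPI3K and 99.5, 42.4 and 105 in NTG. Its dnPI3K arrays lay within a narrow range above all others, with log2 fold changes of 1.35 ± 0.47 in dnPI3K against NTG (limma adjusted p = 0.203) and -1.47 ± 0.47 in caPI3K against dnPI3K (0.132). Ifit3 read 115, 129 and 122 in caPI3K, against 273, 151 and 184 in dnPI3K and 152, 88.5 and 111 in NTG, so that caPI3K and dnPI3K did not overlap while dnPI3K and NTG did. Ifit1 read 32.8, 44.6 and 43.7 in caPI3K, against 229.6, 41.1 and 102 in dnPI3K and 118, 13.1 and 22.7 in NTG. Here dnPI3K replicate 1 and NTG replicate 1 were the 2 highest arrays, and the groups overlapped.

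Ifi35, which encodes a cytoplasmic protein that interferon induces, had the largest fold change of any effector in dnPI3K against NTG. It read 217, 209 and 352 in caPI3K, against 577, 305 and 452 in dnPI3K and 231, 232 and 62.2 in NTG. All dnPI3K arrays were above all NTG arrays, of which replicate 3 was far below the other two, and the log2 fold change was 1.53 ± 0.478 (adjusted p = 0.151). In caPI3K against NTG it was 0.76 ± 0.478, with overlap. Ifi202b, a DNA-binding member of the Ifi200 family, read 52.9, 88.0 and 80.6 in caPI3K, 83.4, 59.6 and 75.7 in dnPI3K and 71.8, 43.8 and 16.8 in NTG. Both contrasts with NTG gave 0.59 ± 0.338, and NTG replicate 3, on the floor, again held the lowest value. Ifitm10 read 184, 326 and 111 in caPI3K, against 104, 82.3 and 80.7 in dnPI3K and 218, 253 and 71.9 in NTG. All caPI3K arrays were above all dnPI3K arrays (1.09 ± 0.504, adjusted p = 0.315), and the NTG arrays spanned both. Ifitm3, whose product stops viruses from leaving endosomes, read 4304, 4098 and 4770.2 in caPI3K, 5546, 4770.2 and 4978 in dnPI3K and 5925, 3767 and 4127 in NTG, with log2 fold changes between -0.22 and 0.17 over the comparisons.

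Isg15 encodes a ubiquitin-like tag that interferon induces, and Usp18 the protease that takes the tag off. Isg15 read 318, 183 and 422 in caPI3K, 376, 195 and 207 in dnPI3K and 448, 73.7 and 233 in NTG. Both the highest and the lowest of the 9 arrays were NTG arrays, replicate 1 and replicate 2. Usp18 read 13.8, 27.5 and 10.0 in caPI3K, 75.8, 59.6 and 10.6 in dnPI3K and 46.0, 11.2 and 11.6 in NTG. All caPI3K arrays of Usp18 were on the floor, as were 1 dnPI3K array and 2 NTG arrays. Mx1, an antiviral GTPase, was above the floor on 1 array only, dnPI3K replicate 1 at 51.9, and was not tested. Oas1g and Ifi209, the other 2 effectors not tested, were above it on 0 and 1 arrays.

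Gbp2, Gbp3 and Gbp7 encode guanylate-binding proteins, GTPases that attack vacuoles and microbes. They are named here after their values were seen, because of their wide range within groups. Gbp2 read 550.0, 714 and 1385 in caPI3K, 2122, 965 and 614 in dnPI3K and 1546, 348 and 732 in NTG. Gbp3 read 342, 551 and 1132 in caPI3K, 1445, 565 and 454 in dnPI3K and 1105, 178 and 652 in NTG. Gbp7 read 365, 956 and 1658 in caPI3K, 2078, 785 and 429 in dnPI3K and 1303, 611 and 1765 in NTG. In all 3 genes caPI3K replicate 3 was the highest caPI3K array and dnPI3K replicate 1 the highest dnPI3K array. NTG replicate 1 was the highest NTG array for Gbp2 and Gbp3, and replicate 3 for Gbp7. The log2 fold changes between groups, 0.16, 0.24 and -0.43 in caPI3K against NTG and 0.56, 0.51 and -0.34 in dnPI3K against NTG for Gbp2, Gbp3 and Gbp7, did not exceed their standard errors of 0.56 to 0.66.

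The same arrays were high for classical class I. H2-K1 and H2-D1 encode the heavy chains, B2m the invariant light chain, Tap1 and Tap2 the pump that carries peptides into the endoplasmic reticulum, and Tapbp the bridge between pump and heavy chain. H2-K1 read 6977, 8008 and 8866 in caPI3K, against 15918, 7793 and 6203 in dnPI3K and 9664, 4216 and 5925 in NTG. H2-D1 read 5909, 6587 and 8751 in caPI3K, against 13171, 7972 and 5968 in dnPI3K and 9336, 4611 and 5867 in NTG. For both heavy chains dnPI3K replicate 1 was the highest array of all, NTG replicate 1 came next and NTG replicate 2 was the lowest. B2m read 5689.6, 11096 and 7618 in caPI3K, against 14618, 4794 and 3493 in dnPI3K and 10137, 2379 and 4490.4 in NTG. It followed the heavy chains in dnPI3K and NTG, over a wider range, but in caPI3K its highest array was replicate 2. Tap1 read 331, 431 and 640.4 in caPI3K, against 918, 461 and 358 in dnPI3K and 653, 295 and 386 in NTG. Tap2 read 315, 351 and 400.2 in caPI3K, against 483, 371 and 321 in dnPI3K and 456, 316 and 307 in NTG.

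Tapbp read 1074, 865 and 985 in caPI3K, against 1243, 865 and 918 in dnPI3K and 1092, 861 and 879 in NTG, and was the least variable of the 6. On these brightest probe sets of the 6 genes dnPI3K replicate 1 was the highest of the 9 arrays and NTG replicate 1 the highest NTG array. The groups overlapped for each of them, 0 of 6 passed the test in any comparison, and dnPI3K against NTG gave log2 fold changes between 0.09 (Tapbp) and 0.56 (H2-K1), all above 0. In caPI3K against NTG the largest was B2m at 0.72 ± 0.563 (limma adjusted p = 0.838). The probe sets of H2-K1 and H2-D1 are of the kind that is shared within a gene family, so their signal may include other heavy chains. Another H2-K1 probe set, not of that kind, gave -0.48 in caPI3K against NTG, where the brightest gave 0.35, and 2 dimmer Tapbp probe sets gave -0.05 and -0.15, where the brightest gave 0.05. On this H2-K1 probe set all caPI3K arrays lay below all dnPI3K arrays (-0.68, limma adjusted p = 0.205). The same held for 1 of the dimmer Tapbp probe sets (-0.45, adjusted p = 0.302). In that comparison 23.7% of all probe sets did not overlap. The other probe sets of H2-K1 and H2-D1 also had replicate 1 as the highest dnPI3K and NTG array. In caPI3K, replicate 2 was the highest array on the H2-K1 probe set not shared within the family and on both other H2-D1 probe sets. The second Tap1 probe set, dimmer than the first, did not: it read 157, 125 and 108 in caPI3K, against 96.4, 145 and 200.1 in dnPI3K and 99.0, 139 and 88.2 in NTG, with replicate 1 the lowest dnPI3K array and replicate 2 the highest NTG array. Both dimmer Tapbp probe sets had replicate 3 as the highest NTG array, and in 1 of them replicate 2 was the highest dnPI3K array.

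**Figure D3:**
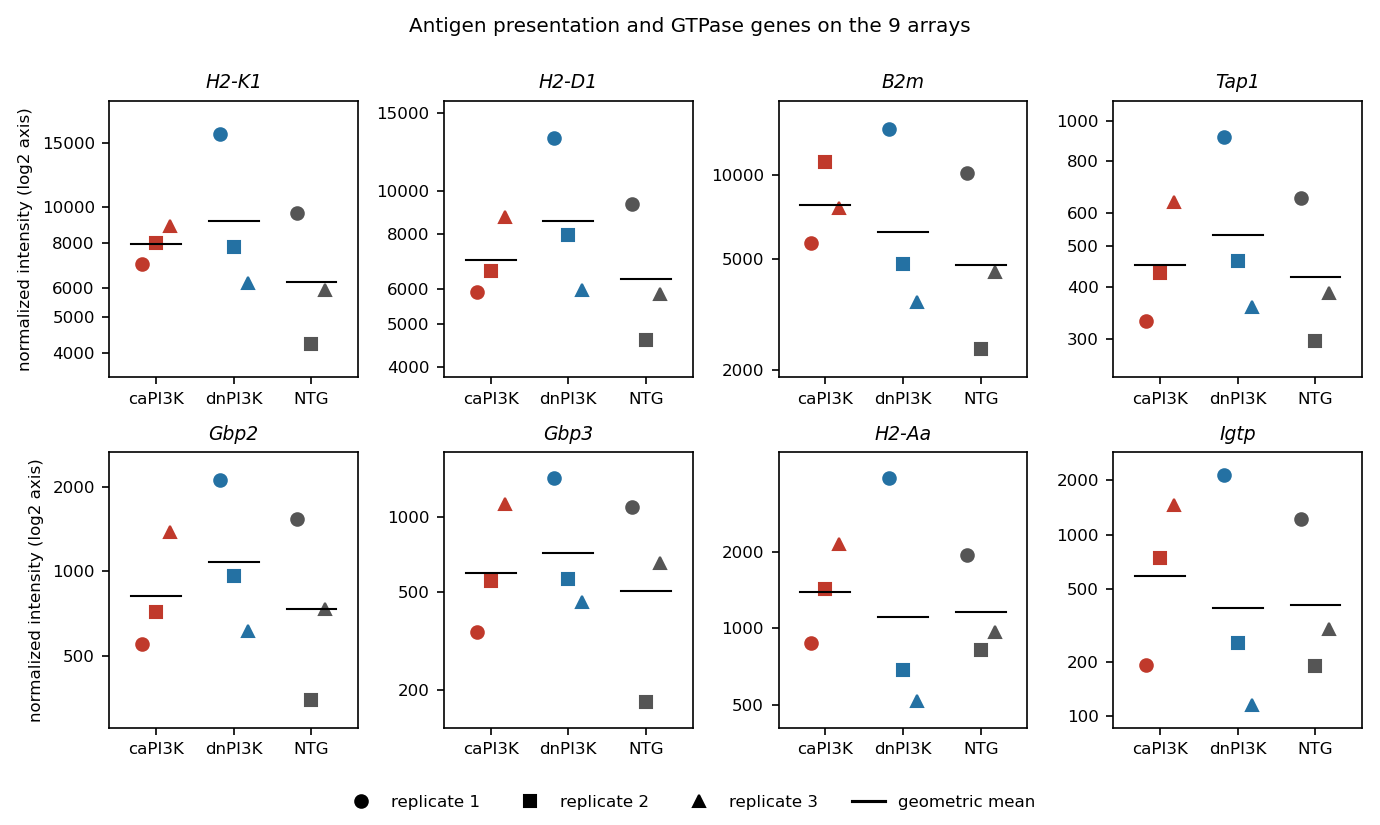
Normalized intensity (log2 axis) on each array for H2-K1, H2-D1, B2m, Tap1, Gbp2, Gbp3, H2-Aa and Igtp, by group, with a symbol per replicate and a line at the geometric mean. In every panel dnPI3K replicate 1 is the highest of the 9 arrays and NTG replicate 1 the highest NTG array.

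Of the 11 class II genes, dnPI3K replicate 1 was the highest dnPI3K array in 8 and NTG replicate 1 the highest NTG array in 7, whereas caPI3K replicate 3 was the highest caPI3K array in 5 and the lowest in 5. H2-Aa, H2-Ab1 and H2-Eb1 encode chains that bind the peptide, and H2-DMa and H2-DMb2 the helper that exchanges it. H2-Aa read 877, 1430.1 and 2161 in caPI3K, against 3918, 685 and 515 in dnPI3K and 1959, 826 and 968 in NTG. H2-Ab1 read 317, 674 and 884 in caPI3K, against 823, 238 and 166 in dnPI3K and 819.7, 347 and 342 in NTG. In both, replicate 3 was highest in caPI3K, and replicate 1 was highest in dnPI3K and in NTG. H2-DMa read 422, 735 and 840.5 in caPI3K, against 1425, 523 and 425 in dnPI3K and 938, 237 and 192 in NTG, which is the same order. Its log2 fold change of caPI3K against NTG was 0.87 ± 0.59 with an adjusted p of 0.82, and a second, dimmer probe set gave -0.06. H2-Eb1 and H2-DMb2 kept to this order less. H2-Eb1 read 451, 521 and 187 in caPI3K, against 476, 86.7 and 406 in dnPI3K and 487, 338 and 211 in NTG, with its lowest caPI3K value on replicate 3. H2-DMb2 read 147, 162 and 121 in caPI3K, against 185, 45.7 and 27.4 in dnPI3K and 95.8, 165 and 35.3 in NTG, so that the narrow caPI3K range lay inside the dnPI3K range, and caPI3K against dnPI3K gave 1.09 ± 0.654 (adjusted p = 0.458). Over all 11 class II genes, 0 passed in any comparison, and the medians were 0.26 in caPI3K against NTG, -0.06 in dnPI3K against NTG and 0.23 in caPI3K against dnPI3K.

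The 14 other class I-like H2 genes, of the K, D, Q, T and M regions, are less uniform and 0 of 14 passed the test in any comparison. H2-D4, a class I gene with a probe set shared within the family, read 601, 613 and 785 in caPI3K, against 1721, 1084 and 591 in dnPI3K and 697, 326 and 601 in NTG. Replicate 1 of dnPI3K was again the highest array, and the log2 fold change of dnPI3K against NTG was 1.0 ± 0.364 (adjusted p = 0.22) with overlapping groups. H2-M2 read 286, 187 and 249 in caPI3K, against 107, 180.1 and 146 in dnPI3K and 177, 238 and 231 in NTG. Its caPI3K arrays lay above its dnPI3K arrays, with 0.75 ± 0.279 (adjusted p = 0.198), while dnPI3K against NTG, at -0.60 ± 0.279, overlapped. H2-M9 read 236, 309 and 105 in caPI3K, against 236, 247 and 124 in dnPI3K and 347, 289 and 275 in NTG, and all dnPI3K arrays were below all NTG arrays at -0.64 ± 0.398 (adjusted p = 0.511). H2-M1 read 174, 27.4 and 35.7 in caPI3K, against 168, 222 and 52.0 in dnPI3K and 122, 222 and 104 in NTG, and H2-T18 read 2339.9, 1746 and 1218 in caPI3K, against 1711, 1375 and 1132 in dnPI3K and 965, 1647 and 1497 in NTG. For both of these replicate 1 was the highest caPI3K array, unlike most class I genes, and caPI3K against NTG gave -1.22 ± 0.686 for H2-M1 and 0.35 ± 0.257 for H2-T18. H2-Ke6 matches the symbol pattern but encodes a steroid dehydrogenase that lies among the MHC genes. It read 869.8, 1005 and 1079 in caPI3K, 791, 1239 and 1140.1 in dnPI3K and 927, 938 and 1375 in NTG, and dnPI3K replicate 1 was its lowest array.

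In each group, the array that was the highest for most of these genes was picked from the counts below. Apart from ties, any set of genes has such an array. The shares of all probe sets beside the counts do not allow for this choice. Across the 66 genes, dnPI3K replicate 1 was the highest dnPI3K array in 46 (69.7%, against 35.2% of all probe sets tested), NTG replicate 1 the highest NTG array in 36 (54.5%, against 28.9%) and caPI3K replicate 3 the highest caPI3K array in 34 (51.5%, against 33%). Of the 9 arrays together, dnPI3K replicate 1 was the highest in 31 of 66 genes. The lowest arrays were caPI3K replicate 1 in 37 genes (56.1%, against 34.1%), dnPI3K replicate 3 in 33 (50%, against 31.6%) and NTG replicate 2 in 32 (48.5%, against 33.5%). By role, dnPI3K replicate 1 was the highest dnPI3K array in 6 of 6 classical class I and loading genes, 10 of 14 other class I-like genes, 8 of 11 class II genes, 17 of 23 effectors and 5 of 11 Stat and Irf genes. NTG replicate 1 was the highest NTG array in 6 of 6, 7 of 14, 7 of 11, 12 of 23 and 4 of 11 genes of these roles, taken in the same order. Among the 14 other class I-like genes NTG replicate 2 was the highest NTG array in 7 as well, and replicate 3 was the lowest in 8. caPI3K replicate 3 was the highest caPI3K array in 4 of 6, 7 of 14, 5 of 11, 12 of 23 and 5 of 11 genes. Among class II genes the lowest NTG array was replicate 3 in 6 of 11 and replicate 2 in 4. Of the 28 H2 genes, 9 were read by a probe set shared within a gene family. These are H2-K1, H2-D1, H2-Bl, H2-D4, H2-K2, H2-Q1, H2-Q4, H2-Q5 and H2-T18. The counts of class I genes may therefore hold the same transcripts more than once. Outside the H2 genes, Irf7, Ifi204 and Ifi207 were read by probe sets of this kind too.

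**Figure D4:**
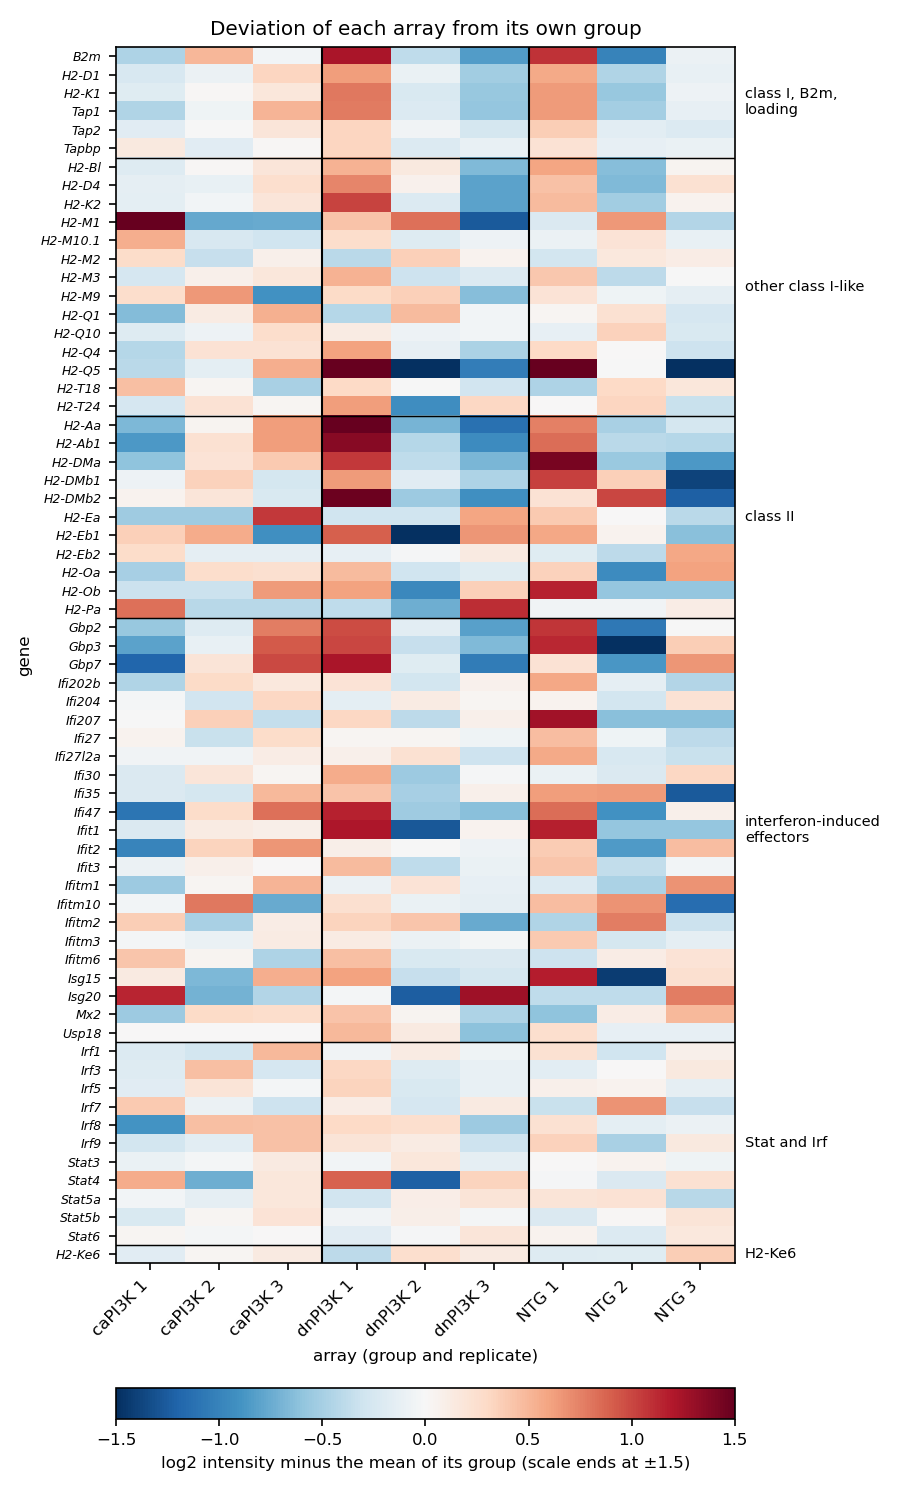
Log2 intensity of each array minus the mean of its own group, for the 66 tested genes (rows, by role) on the 9 arrays (columns), coloured from blue (below the group) to red (above), with the scale ending at 1.5 in either direction. The columns dnPI3K 1 and NTG 1 are mostly red and the column caPI3K 1 mostly blue in the class I, class II and effector blocks, whereas NTG 2 is blue for the classical class I genes and mixed for the other class I-like genes.

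The spread within groups was wide for the level of these genes. Their median residual standard deviation was 0.52 on the log2 scale, against 0.28 for all 10645 probe sets. Dim probe sets scatter more, so the comparison was repeated above a mean intensity of 1000. There, 14 members had a median of 0.45, against 0.15 for all 1903 probe sets, and 9 of the 14 lay past the 95th percentile of 0.34. Among these 9, H2-K1, H2-D1, H2-K2, H2-Bl, H2-Q4 and H2-T18 were read by probe sets shared within a gene family. They may therefore in part measure the same transcripts. A highest array at least 2-fold above the lowest of its group was seen for 19 of 66 genes in caPI3K (28.8%, against 16.3% of all), 29 in dnPI3K (43.9%, against 15.9%) and 33 in NTG (50%, against 20.4%). Of the 29 genes in dnPI3K, 25 had replicate 1 as the highest array (86.2%, against 36.7% of the 1695 probe sets with such a range). Of the 33 in NTG, 21 had replicate 1 as the highest (63.6%, against 32.8% of 2167), and of the 19 in caPI3K, 11 had replicate 3 (57.9%, against 35.3% of 1736). The arrays in these counts are those picked above from the same genes, so the counts are no separate support. In 63 of 66 genes the widest range within a group exceeded the range of the 3 group means, as it did in 87.1% of all probe sets. Single arrays range more widely than means of 3 arrays for any gene, and the 3 exceptions were Stat3, Stat5b and Stat6.

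**Figure D5:**
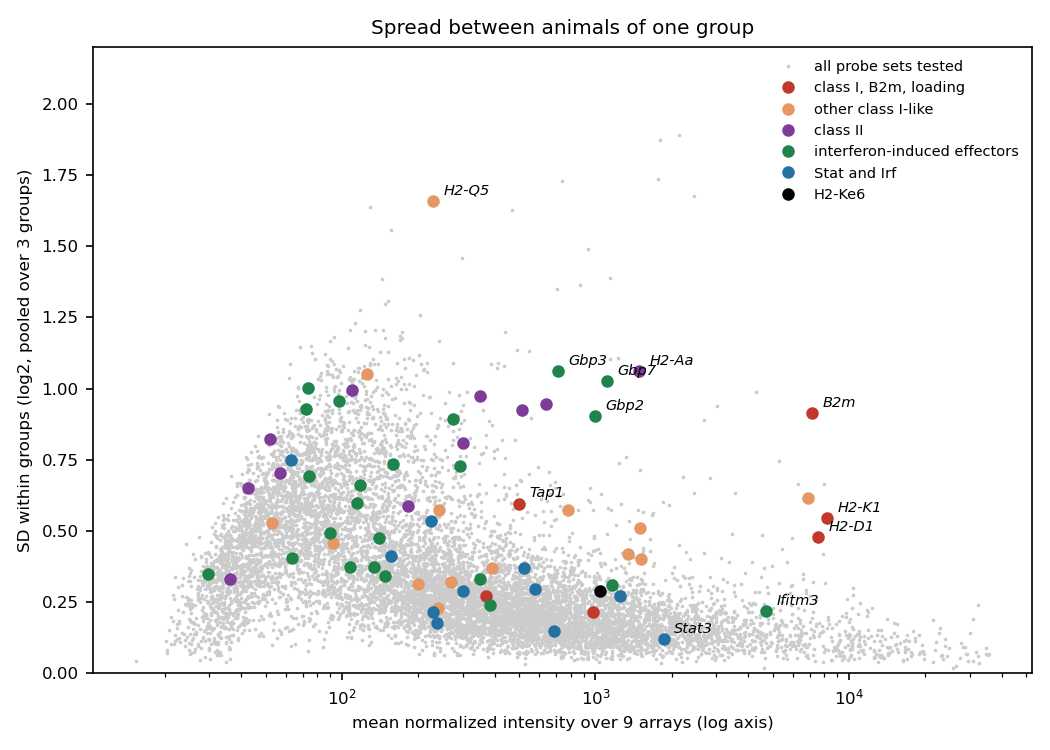
Pooled standard deviation within groups (log2 units) against mean normalized intensity over the 9 arrays (log axis) for all 10645 probe sets tested (grey) and the 66 interferon and MHC genes (coloured by role). B2m, H2-K1, H2-D1, H2-Aa, Gbp2, Gbp3 and Gbp7 lie above the grey band of equally bright probe sets, while Stat3 and Ifitm3 lie within it.

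Genes of the pathway outside the symbol rule were counted in the same way. Of 47 other listed interferon-stimulated genes, 32 were measured and 29 tested, and 0 of 29 passed the test in any comparison. NTG replicate 1 was the highest NTG array in 17 of these 29 (58.6%, against 28.9% of all probe sets tested). The highest caPI3K array was replicate 3 in 18 (62.1%, against 33%), and the highest dnPI3K array replicate 1 in 16 (55.2%, against 35.2%). These arrays were picked as the high ones from the members in the same data, so the counts are no separate support. Igtp, an immunity-related GTPase, read 191, 745 and 1462 in caPI3K, 2142, 254 and 115 in dnPI3K and 1223, 189 and 301 in NTG. Irgm2, of the same family, read 412, 1012 and 2328 in caPI3K, 2970.5, 526 and 311 in dnPI3K and 1617, 328 and 732 in NTG. For both genes the highest array of a group was between 4.93 and 18.6 times the lowest, while their log2 fold changes between groups lay between -0.05 and 0.58. Of 27 listed genes for antigen processing and class II assembly 22 were measured and tested, and 0 of 22 passed. Of the 21 that are no member, caPI3K replicate 3 was the highest caPI3K array in 13 (61.9%, against 33% of all probe sets tested). NTG replicate 1 was the highest NTG array in 10 (47.6%, against 28.9%). dnPI3K replicate 1 was the highest dnPI3K array in 8 of the 21 (38.1%, against 35.2% of all probe sets tested) and the lowest in 7. Psmb8, Psmb9, Psmb10 and Psme1 belong to both this list and the list of interferon-stimulated genes and are counted in each. All of these had dnPI3K replicate 1 as the highest dnPI3K array. Cd74, the invariant chain of class II, read 1699, 2775 and 3669 in caPI3K, 5559.6, 1491 and 1116 in dnPI3K and 4047, 1477 and 2240.2 in NTG, and Psmb9, a subunit of the immunoproteasome, read 352, 444 and 713 in caPI3K, 1282, 543 and 382 in dnPI3K and 875, 371 and 377 in NTG. Both had caPI3K replicate 3, dnPI3K replicate 1 and NTG replicate 1 as the highest of their groups. Igtp, Irgm2, Cd74 and Psmb9 were chosen after their values were seen.

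Markers of immune cells moved with these arrays in part. Macrophage markers, of which 15 of 16 were measured, summed to 9463 to 10266 in caPI3K, 8756 to 11209 in dnPI3K and 7110.4 to 12149 in NTG, and the highest sum of each group was on caPI3K replicate 3, dnPI3K replicate 1 and NTG replicate 1. Among the 15 genes dnPI3K replicate 1 was the highest dnPI3K array in 11 (73.3%, against 35.2% of all probe sets tested). NTG replicate 1 was the highest NTG array in 13 (86.7%, against 28.9%) and caPI3K replicate 3 the highest caPI3K array in 8 (53.3%, against 33%). Here too the arrays had been picked from the members in the same data, so the counts are no separate support. The complement gene C1qa, made by macrophages, read 1976, 2316 and 2234 in caPI3K, 2521, 1792 and 1706 in dnPI3K and 2894, 1514 and 1458 in NTG. Leukocyte markers (6 of 6 measured) summed to 1792 to 2103 in caPI3K, 1316 to 2067 in dnPI3K and 1261 to 2168 in NTG, highest on replicate 1 of each group. Dendritic cell markers (6 of 7) summed to 1409.6 to 1564 in caPI3K, 1353 to 1773 in dnPI3K and 1529.6 to 1696 in NTG. Their highest sums were on caPI3K replicate 3, dnPI3K replicate 1 and NTG replicate 2, and NTG replicate 1 had the lowest NTG sum. For T and NK cells 11 of 14 markers were measured, with Cd8a, Cd8b1, Cd2 and Cd5 on the floor on all arrays, and sums of 403 to 776 in caPI3K, 389 to 638 in dnPI3K and 588 to 677 in NTG. The highest T and NK sums were on caPI3K replicate 1, dnPI3K replicate 2 and NTG replicate 1, and caPI3K replicate 3 had the lowest caPI3K sum. B cell markers (6 of 7) summed to 1303 to 1369.6 in caPI3K, 1267 to 1379 in dnPI3K and 1439.7 to 3118 in NTG, where NTG replicate 1 stood out through the antibody heavy chain gene Ighm (2185, 653 and 551 on the NTG arrays). In caPI3K and in dnPI3K the highest B cell sum was on replicate 3. The part of these cells in the interferon and MHC pattern was not tested.

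Atrial muscle genes also differed between mice. Of 5 listed atrial markers 4 were measured. Their intensities summed to 2938, 2424 and 13434 in caPI3K, 11332, 8684 and 9342 in dnPI3K and 21023, 12146 and 2118 in NTG. The highest sum of each group was on caPI3K replicate 3, dnPI3K replicate 1 and NTG replicate 1, as for the macrophage markers. The atrial myosin light chain gene Myl4 read 499, 421 and 4304 in caPI3K, 27.9, 49.7 and 36.1 in dnPI3K and 6896, 3669 and 223 in NTG. It was high on caPI3K replicate 3, NTG replicate 1 and NTG replicate 2 and at or near the floor on all dnPI3K arrays. The dnPI3K sums therefore came from other atrial markers than Myl4. In dnPI3K against NTG, 2 of the 4 markers were called lower (2.18% of all probe sets were called) and 2 were above NTG. In caPI3K against dnPI3K, 1 of 4 was called lower (3.24% of all were called) and 2 were above dnPI3K. The 6 classical class I and loading genes were highest on dnPI3K replicate 1, and NTG replicate 2 was the lowest NTG array in 5 of them. The part of atrial muscle in the high values of caPI3K replicate 3, dnPI3K replicate 1 and NTG replicate 1 was not tested.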

How the data were processed

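The authors deposited an intensity for each of 12488 probe sets on each of 9 arrays. The sources used here do not name the software behind these intensities, but the values are linear, above 0 and already scaled to a common trimmed mean. Gene symbols came from the platform annotation, and all 70 member genes were found in the RefSeq gene table (GRCm38.p6) under the same symbol. Probe sets with several symbols, of which 15 match the rule, stayed unnamed.

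After quantile normalization of the deposited intensities, values under the 20th percentile (35.3) were set to it as a floor, log2 was taken, and the 66 array controls were then left out. A probe set was tested if above the floor on at least 3 arrays, which left 10645. All 9 arrays entered 1 limma fit (limma 3.58.1 in R 4.3.3, with eBayes moderation that follows an intensity trend) with group as its only term. P-values are two-sided with Benjamini-Hochberg adjustment across the tested probe sets, with a threshold of 0.05. Standard errors are the moderated ones, and values given per array are normalized intensities before the floor. The procedure was tested on simulated data.

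The members and lists were chosen with earlier results of these data known. The genes with values for every array are those past the threshold, the 4 of smallest p per comparison and direction, and a list of well-known members. Other probe sets of such a gene are given where they differed in sign or call. Alternatives changed 1 setting at a time: the normalization, the floor, the filter, the moderation, array weights, the probe set of a gene, the groups in the fit, a block for the series of animal numbers, and leaving out each array.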

Additional observations from a re-analysis of the deposited data

How the results depend on the processing

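For the 24 named gene and comparison pairs, 469 of 480 alternative values kept the direction and the side of the threshold, 0 changed direction, 4 (all Stat3 in caPI3K against dnPI3K) no longer passed and 7 newly passed. For caPI3K against NTG, 9 probe sets were called by the chosen fit, 1 with no filter on dim probe sets, 1 with no intensity trend, 0 in a limma fit of the 2 groups alone (660 at an unadjusted p under 0.05) and between 0 and 20 with 1 array left out, with 0 interferon and MHC genes under every alternative. For dnPI3K against NTG, 232 probe sets were called, 138 with no filter, 94 with no trend, 94 with the 2 groups alone and between 82 and 235 with 1 array left out. Of the interferon and MHC genes, 1 passed there with arrays scaled to the same median (Stat3) and 1 with a floor at the 40th percentile (Ifit2). For caPI3K against dnPI3K, 345 probe sets were called, 219 with no filter, 151 with no trend, 527 with array weights and between 134 and 435 with 1 array left out. Its count of interferon and MHC genes, 1 in the chosen fit, was 3 with the floor at the 40th percentile (Ifit2, Stat3 and Stat5b), 2 above the median intensity, 2 with robust moderation, 2 with array weights (Stat3 and Stat5b each time), 0 with no trend and between 0 and 1 with 1 array left out. Scaling to the same median turned the split of dnPI3K against NTG calls into 135 higher and 93 lower, where the chosen fit had 108 and 124. The cause of these shifts was not tested. With 3 arrays a group and a spread this wide, small differences cannot be seen, and values on the floor have no order. No paired analysis was possible because no label pairs a mouse of 1 group with a mouse of another, and replicate numbers here only name the arrays. The series of animal numbers, which holds caPI3K and NTG mice without pairing them, gave 8 probe sets and 0 interferon and MHC genes for caPI3K against NTG as a block.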

Other observations

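Beside the 89 probe sets with 1 symbol, 15 probe sets carry several symbols of which at least 1 matches the rule, and 12 of them were tested. They were left unnamed, since their gene is uncertain. On these 12, dnPI3K replicate 1 was the highest dnPI3K array in 9 (75%, against 35.2% of all probe sets tested). NTG replicate 1 was the highest NTG array in 8 (66.7%, against 28.9%). The highest caPI3K array was replicate 2 in 6 (50%, against 31.9%) and replicate 3 in 6 (50%, against 33%).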
